A study of Bos taurus with 12 samples.

Results

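The genes described here are 5 surface markers of adipose stromal progenitors: PDGFRA, CD34, DPP4, THY1 and FAP. Every probe set of the bovine Affymetrix array that is annotated with exactly 1 of these symbols was taken, which gave 8 probe sets of the 24128 on the array. PDGFRA has 3 probe sets, DPP4 has 2, and CD34, THY1 and FAP have 1 each. The array names 9155 genes through probe sets with 1 symbol. In all, 7 of the 8 passed the filter on dim signals, and the PDGFRA probe set Bt.29877.1.S1_at did not.

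The study profiled fat from steers of Japanese Black (JB), a beef breed, and Holstein (HS), a dairy breed, all on energy rich feeding. The depots were intramuscular fat (IMF), found between and within muscle bundles, and subcutaneous fat (SCF) from beneath the skin, and each was sampled in both breeds. This gave 4 groups of 3 samples: JB IMF 1 to 3, JB SCF 4 to 6, HS IMF 1 to 3 and HS SCF 4 to 6. The series compares the breeds within each depot, and the depots over both breeds. Ages are not given in the labels, and the labels do not say whether samples came from separate animals or whether IMF and SCF came from the same ones. The p-values therefore rest on the scatter among these samples alone, part of which may be technical.

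Adipose stromal progenitors are fibroblast-like cells between the adipocytes and around the vessels, and they supply new adipocytes when a depot grows. PDGFRA is the receptor kinase that binds platelet-derived growth factors, and it marks these cells in fat and the fibro-adipogenic progenitors of muscle. CD34 is a sialomucin of the same cells that also lies on endothelial cells. DPP4, also called CD26, is a cell-surface peptidase that marks progenitors of the interstitial sheaths around fat and trims the chemokine CXCL12. THY1, also called CD90, is a lipid-anchored surface protein of fibroblasts, some nerve cells and some lymphoid cells. FAP is the serine protease most similar to DPP4, and it is known from activated fibroblasts.

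Signals below are the deposited linear intensities unless a value is called a log2 level or log2 difference, which refers to log2(signal + 16) after quantile normalization. A log2 difference on this scale understates the change of dim probe sets. Fold values are 2 to the power of that difference. A probe set was called at a limma adjusted p (Benjamini-Hochberg, over 16811 tested probe sets) below 0.05. The number of arrays limits the precision. The median signal was 77.6 to 88.3 on 11 arrays and 58.8 on HS IMF 3. The mean correlation with the other arrays of the group was 0.944 to 0.962 in JB and 0.805 to 0.915 in HS, lowest in HS IMF 3. The GAPDH 3′ to 5′ signal ratio was 4.06 in HS SCF 5 and 1.19 to 2.40 elsewhere.

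**Figure D1:**
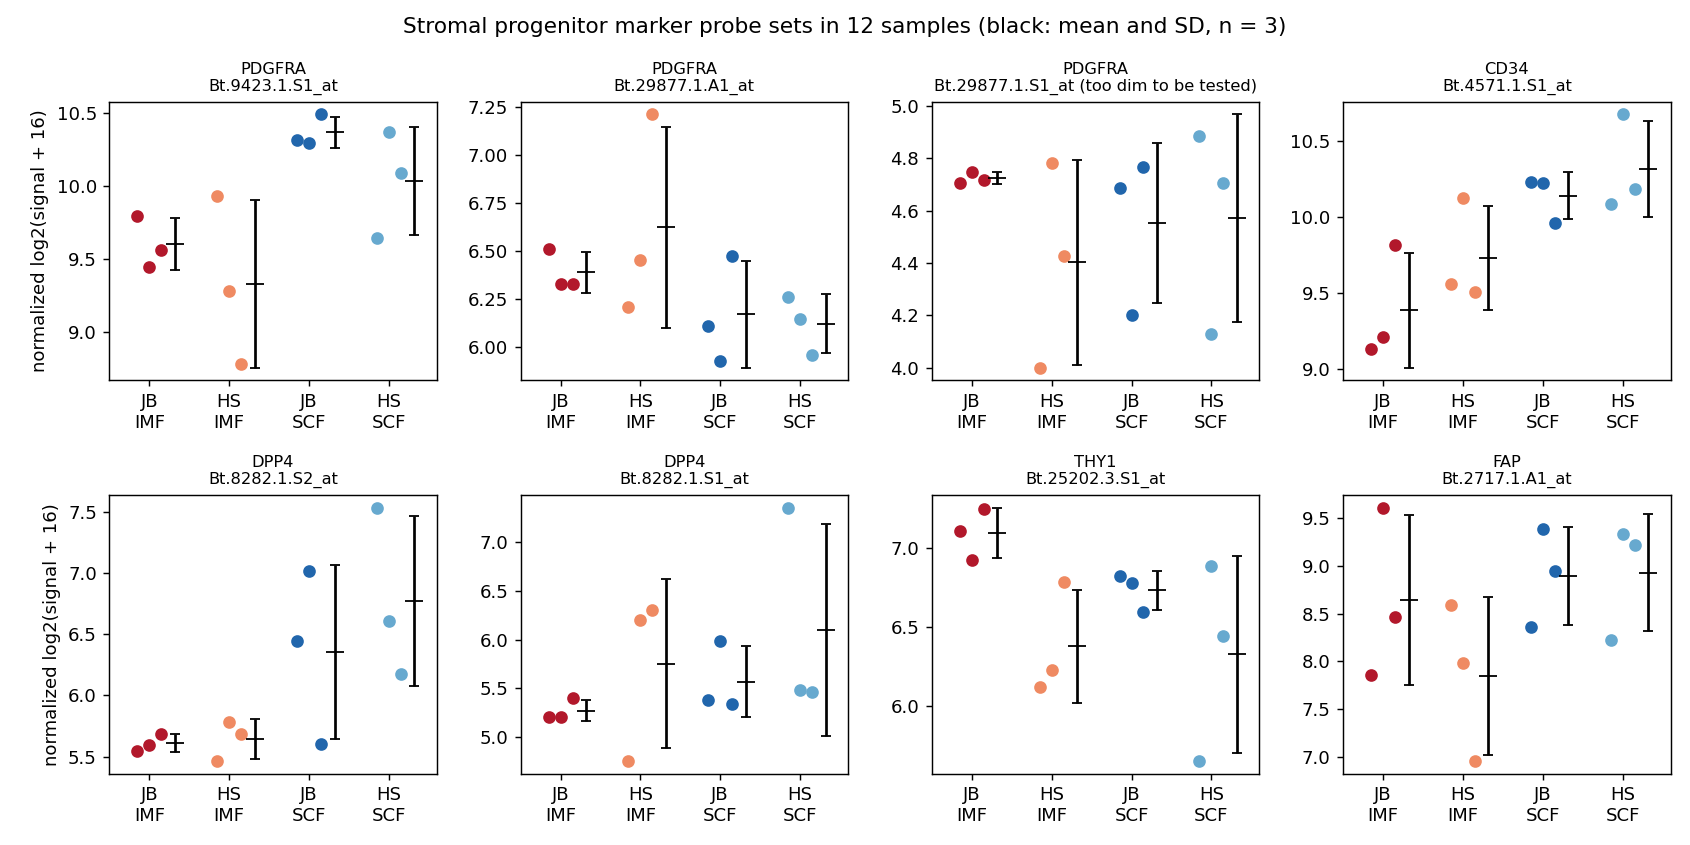
Normalized log2(signal + 16) of the 8 marker probe sets, with 1 point per sample and the mean and SD (n = 3) of each group in black. The brightest PDGFRA probe set, CD34 and DPP4 Bt.8282.1.S2_at have their lower means in the IMF groups, and each panel has its own axis, which does not start at 0.

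PDGFRA, CD34 and DPP4 were lower in intramuscular than in subcutaneous fat over both breeds, by 1.59-fold to 1.91-fold at their brightest probe sets. No marker passed the test between the breeds. All 3 depot calls lay close to the threshold, with adjusted p from 0.0455 to 0.0472 in limma. The DPP4 probe set passed the filter on dim signals through its SCF samples, where it was higher. THY1 and FAP were not called in any comparison.

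The receptor PDGFRA was read brightly by Bt.9423.1.S1_at. Its signal in intramuscular fat was 946, 706 and 820 in JB IMF 1, 2 and 3 and 960, 569 and 233 in HS IMF 1, 2 and 3. In subcutaneous fat it was 1415, 1388 and 1502 in JB SCF 4, 5 and 6 and 770, 1343 and 1141 in HS SCF 4, 5 and 6. All JB SCF samples lay above all IMF samples, whereas HS SCF 4 lay within the IMF range, so the depots overlapped. HS IMF 3 was the lowest sample. The IMF minus SCF log2 difference over both breeds was -0.73 ± 0.21 (SE, n = 6 per depot), a 1.66-fold higher level in SCF (limma adjusted p = 0.0455). In whole tissue, fewer cells of a type and less RNA per cell cannot be told apart, which holds for every marker here.

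The order of the 4 mean log2 levels at this probe set was JB SCF (10.37 ± 0.11, SD, n = 3), HS SCF (10.03 ± 0.37), JB IMF (9.60 ± 0.18) and HS IMF (9.33 ± 0.58). JB SCF overlapped HS SCF after normalization, whereas as deposited the signals of JB SCF, from 1388 to 1502, lay above those of HS SCF, from 770 to 1343. HS SCF overlapped each IMF group, and JB IMF overlapped HS IMF. The depot difference was of like size in each breed, at -0.77 ± 0.30 (SE) in JB, where the depots did not overlap, and -0.70 ± 0.30 in HS, where they did. Neither passed on its own in limma (adjusted p = 0.271 in JB and 0.203 in HS). The difference between these depot differences was -0.063, with a 95% interval from -0.99 to 0.86 (limma adjusted p = 0.996).

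The PDGFRA call did not survive most reductions of the sample set. It stood without HS IMF 1 (limma adjusted p = 0.0125) or without HS SCF 4 (0.0296), and was lost when each of the other 10 samples was left out, with adjusted p from 0.0625 to 0.108. Without JB SCF 6 and HS SCF 5 together, adjusted p was 0.198. The log2 difference itself stayed between -0.92 and -0.59 over 22 alternatives.

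The other PDGFRA probe sets did not show this pattern. At Bt.29877.1.A1_at the signal was 77.6, 65.6 and 66.9 in JB IMF 1 to 3, 57.3, 68.3 and 84.6 in HS IMF 1 to 3, 55.1, 46.5 and 76.7 in JB SCF 4 to 6, and 59.8, 56.7 and 48.1 in HS SCF 4 to 6. The depots overlapped, with the highest sample being HS IMF 3, the lowest for the bright probe set. The IMF minus SCF log2 difference was 0.36 ± 0.20 (SE; 95% interval -0.065 to 0.79; limma adjusted p = 0.262), opposite in sign to that of the bright probe set and not called. Bt.29877.1.S1_at gave signals of 0 to 12.9 in all 12 samples and was too dim to be tested. A fit over all probe sets gave it a depot log2 difference of 0.0018, with a 95% interval from -0.42 to 0.42. The part of the transcript that each probe set reads was not analysed here.

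CD34, the sialomucin shared by progenitors and endothelium, had signals of 595, 597 and 981 in JB IMF 1 to 3 and 750, 1024 and 403 in HS IMF 1 to 3. The signals in subcutaneous fat were 1351, 1323 and 1046 in JB SCF 4 to 6 and 1057, 1647 and 1217 in HS SCF 4 to 6. All 6 SCF signals lay above all 6 IMF signals as deposited, by a narrow margin between HS IMF 2 and JB SCF 6. After normalization HS IMF 2 lay above JB SCF 6 and HS SCF 4, and the depots overlapped. The log2 difference was -0.67 ± 0.20 (SE), a 1.59-fold higher level in SCF (limma adjusted p = 0.0472).

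The mean log2 levels of CD34 ran in the order HS SCF (10.32 ± 0.32, SD, n = 3), JB SCF (10.14 ± 0.15), HS IMF (9.73 ± 0.34) and JB IMF (9.39 ± 0.38). Each neighbouring pair in that order overlapped. Within JB the depots did not overlap and the log2 difference was -0.75 ± 0.28 (SE; limma adjusted p = 0.230), and within HS it was -0.58 ± 0.28 (adjusted p = 0.246). The depot call was kept without JB IMF 3, HS IMF 2 or HS SCF 4 (adjusted p = 0.0437, 0.0267 and 0.0420) and lost when each of the other 9 samples was left out (0.0659 to 0.126). It also missed the threshold when no dim probe sets were left out, at an adjusted p of 0.0502 in limma.

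DPP4, the interstitial progenitor peptidase, was far from uniform in subcutaneous fat. At Bt.8282.1.S2_at the signal was 31.2, 33.7 and 35.0 in JB IMF 1 to 3 and 27.6, 39.2 and 29.4 in HS IMF 1 to 3. In subcutaneous fat it was 75.0, 126.5 and 34.3 in JB SCF 4 to 6, and 163.2, 85.5 and 58.4 in HS SCF 4 to 6. The IMF samples were all close to one another, and 5 of 6 SCF samples lay above every IMF sample, whereas JB SCF 6 lay within the IMF range. The log2 difference was -0.94 ± 0.27 (SE), a 1.91-fold higher level in SCF (limma adjusted p = 0.0457), the widest depot difference of the 7 tested probe sets. Its mean log2 level was 5.626 in IMF, just below the lowest mean that the filter on dim signals kept (5.627), and 6.56 in SCF. The probe set thus passed that filter through its SCF samples. With no dim probe set left out the call was lost, at an adjusted p of 0.0501 in limma.

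In Holstein the depots did not overlap at this DPP4 probe set, and the log2 difference was -1.13 ± 0.38 (SE), 2.19-fold higher in SCF (limma adjusted p = 0.128). In Japanese Black it was -0.74 ± 0.38 (adjusted p = 0.448). The difference between them was 0.39, with a 95% interval from -0.79 to 1.56 (limma adjusted p = 0.990). The mean log2 levels were HS SCF 6.77 ± 0.70 (SD, n = 3), JB SCF 6.35 ± 0.71, HS IMF 5.64 ± 0.16 and JB IMF 5.61 ± 0.071. HS SCF lay apart from both IMF groups, and the neighbouring pairs HS SCF and JB SCF, JB SCF and HS IMF, and HS IMF and JB IMF overlapped. The depot call stood without JB SCF 6 (adjusted p = 0.0228) or HS SCF 6 (0.0372), and not when each of the other 10 samples was left out (0.0531 to 0.115).

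The other DPP4 probe set, Bt.8282.1.S1_at, was dimmer and less even. Its signal was 21.3, 22.0 and 25.5 in JB IMF 1 to 3, 10.5, 55.7 and 47.8 in HS IMF 1 to 3, 26.0, 49.3 and 25.9 in JB SCF 4 to 6, and 142.7, 29.9 and 29.6 in HS SCF 4 to 6. HS SCF 4 was the highest sample at both DPP4 probe sets. After normalization HS IMF 2 and HS IMF 3 lay above 5 of the 6 SCF samples here, whereas at Bt.8282.1.S2_at 5 of the 6 SCF samples lay above them. The depot log2 difference was -0.32 ± 0.36 (SE; 95% interval -1.11 to 0.47; limma adjusted p = 0.611).

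**Figure D2:**
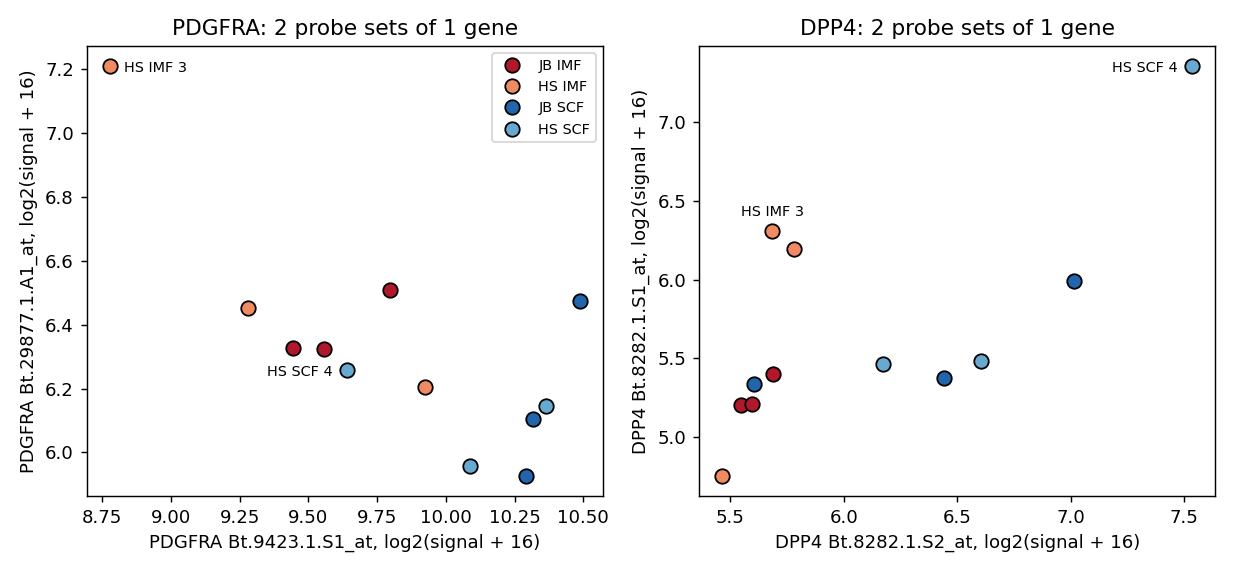
Normalized log2(signal + 16) of 1 probe set against another of the same gene in the 12 samples, PDGFRA on the left and DPP4 on the right, coloured by group. The PDGFRA probe sets have a Pearson r of -0.73, with HS IMF 3 at the extreme upper left. The DPP4 probe sets have an r of 0.67, with HS SCF 4 at the extreme upper right. No r was computed without these samples.

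Across the 12 samples, the paired PDGFRA probe sets had a Pearson r of -0.73, and -0.59 after each group's mean was taken off. The paired DPP4 probe sets had an r of 0.67, and 0.74 after the group means were taken off. These are descriptions over 12 samples that share their groups. HS IMF 3 was the lowest sample at the bright PDGFRA probe set and the highest at the other. HS SCF 4 was the highest at both DPP4 probe sets. How far each r rests on that 1 sample was not tested. The probe sets of PDGFRA thus gave different orders of the samples, and no level for the gene as a whole was formed.

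THY1 had larger signals in every Japanese Black than in every Holstein sample of intramuscular fat, a difference that did not pass the test. Its probe set Bt.25202.3.S1_at had signals of 127, 107 and 147 in JB IMF 1 to 3 and 53.1, 57.1 and 65.3 in HS IMF 1 to 3. In subcutaneous fat the signals were 104, 102 and 84.6 in JB SCF 4 to 6 and 33.5, 107 and 73.5 in HS SCF 4 to 6, which overlapped. The JB minus HS log2 difference in IMF was 0.72 ± 0.31 (SE, n = 3 per group), or 1.64-fold, with a limma p of 0.0389 and an adjusted p of 0.485.

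The THY1 breed difference in SCF was 0.41 ± 0.31 (SE; 95% interval -0.27 to 1.08; limma adjusted p = 1.00). Its mean log2 levels were JB IMF 7.09 ± 0.16 (SD, n = 3), JB SCF 6.73 ± 0.12, HS IMF 6.38 ± 0.36 and HS SCF 6.32 ± 0.62. JB IMF lay above JB SCF without overlap, and the neighbouring pairs JB SCF and HS IMF, and HS IMF and HS SCF, overlapped. Between depots over both breeds the log2 difference was 0.21 ± 0.22 (95% interval -0.27 to 0.68; limma adjusted p = 0.582), and it was -0.064 without HS IMF 3 and HS SCF 4. THY1 was thus the marker whose brightest probe set had the smallest depot difference in absolute size.

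FAP, the protease of activated fibroblasts, varied widely inside every group. At Bt.2717.1.A1_at the signal was 233, 782 and 377 in JB IMF 1 to 3, 388, 214 and 72.5 in HS IMF 1 to 3, 354, 732 and 502 in JB SCF 4 to 6, and 276, 686 and 603 in HS SCF 4 to 6. The highest sample was JB IMF 2 and the lowest HS IMF 3, so intramuscular fat held both ends of the range. The IMF minus SCF log2 difference was -0.67 ± 0.36 (SE; 95% interval -1.46 to 0.13; limma adjusted p = 0.267). The difference was as large as that of CD34, whose SE was 0.20, and it was not called.

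The FAP breed difference (JB minus HS) was 0.80 ± 0.52 (SE) in IMF (95% interval -0.33 to 1.92; limma adjusted p = 0.567) and -0.033 ± 0.52 in SCF (adjusted p = 1.00). Its depot difference was -1.08 ± 0.52 in HS (adjusted p = 0.249) and -0.25 ± 0.52 in JB (adjusted p = 0.937). The mean log2 levels were HS SCF 8.93 ± 0.61 (SD, n = 3), JB SCF 8.89 ± 0.51, JB IMF 8.64 ± 0.89 and HS IMF 7.85 ± 0.83, and all neighbours in that order overlapped.

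**Figure D3:**
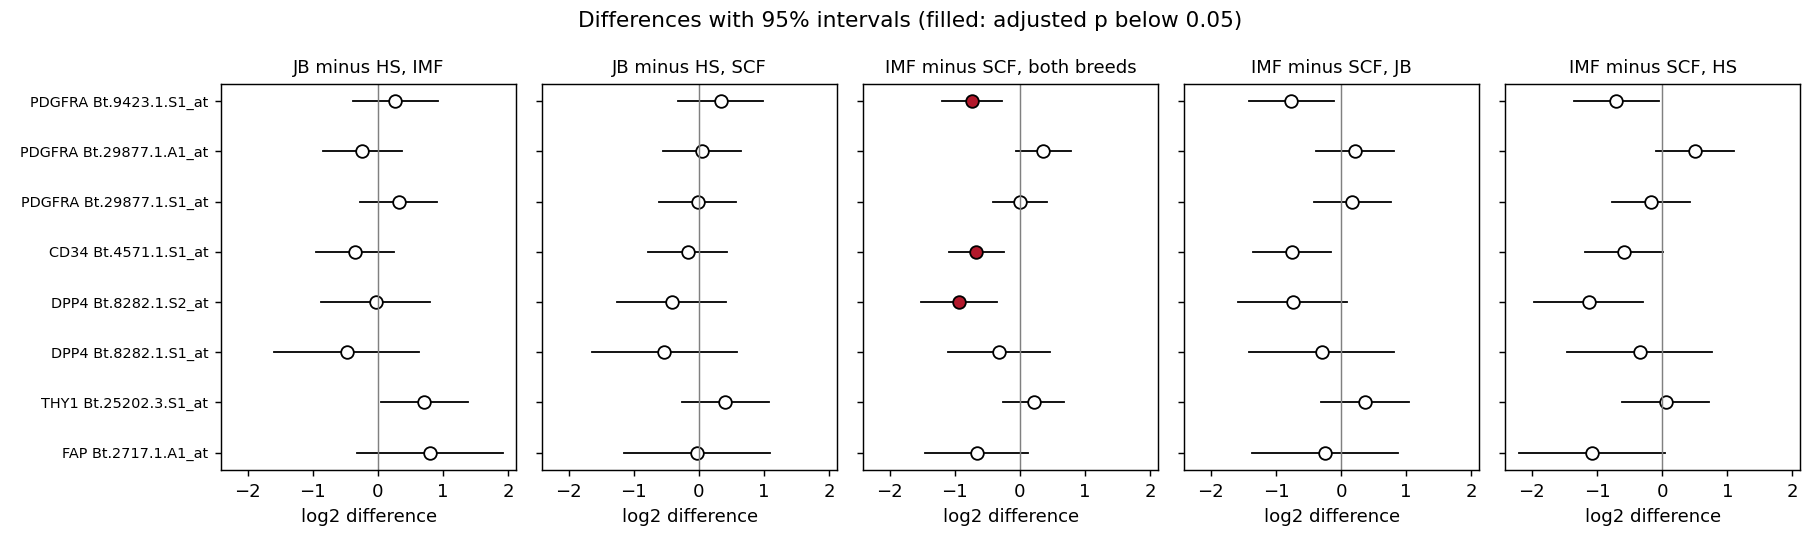
Log2 differences of the 8 marker probe sets in 5 comparisons, with 95% intervals from limma, and filled points for an adjusted p below 0.05. The 3 filled points are the brightest PDGFRA probe set, CD34 and DPP4 Bt.8282.1.S2_at in the depot comparison over both breeds. Bt.29877.1.S1_at comes from a fit that leaves no dim probe set out.

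Over both breeds, 3 of the 7 tested marker probe sets were called between depots, all lower in IMF. Of all tested probe sets, 11.0% were called in this comparison and 6.33% were called as lower in IMF. Among the 3, DPP4 Bt.8282.1.S2_at passed the filter on dim signals through its SCF samples, where it was higher. Its call was lost with no dim probe set left out (limma adjusted p = 0.0501), so its place in this count rests on that filter. The median log2 difference of the 7 was -0.67, against -0.060 over all tested probe sets, and 5 of the 7 differences were negative, against 55.5% of all. None of the 7 had depots without overlap after normalization, against 6.24% of all tested probe sets. Leaving out single samples gave 0 to 2 marker calls, while the share called among all tested probe sets ran from 5.49% without JB IMF 3 to 13.9% without HS IMF 1. There were 0 marker calls without JB IMF 1 (5.81% of all), JB IMF 2 (12.1%), JB SCF 4 (8.16%), JB SCF 5 (6.11%), HS IMF 3 (10.8%) or HS SCF 5 (8.13%), and 2 without HS SCF 4 (12.3%). With no dim probe set left out there was 1 marker call, and 8.17% of all probe sets were called.

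Within a breed no marker probe set was called between depots by limma, with 2 of the 7 at an unadjusted p below 0.05 in each breed. Of all 16811 tested probe sets, 2243 in JB and 3600 in HS had an unadjusted p below 0.05 in the same test. In JB 3.07% of all probe sets were called, and 30.3% had depots that did not overlap, against 3 of the 7 markers: PDGFRA and CD34, lower in IMF, and THY1, higher in IMF. In HS 3.32% were called and 20.5% did not overlap, against 1 of the 7, DPP4. The median log2 difference of the markers was -0.30 in JB and -0.58 in HS, against -0.059 and -0.085 over all tested probe sets.

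Between breeds no marker probe set was called by limma in either depot. In IMF, where 0.0238% of all probe sets were called, 1 of the 7 had an unadjusted p below 0.05, against 1720 of all 16811. Also in IMF, 1 of the 7 had breeds that did not overlap, against 13.8% of all. Both were THY1. In SCF, where 0.00595% were called, 0 of the 7 had an unadjusted p below 0.05, against 599 of all 16811. The median log2 differences of the markers were -0.033 in both depots, against 0.096 in IMF and 0.0029 in SCF over all tested probe sets. The 95% intervals still allow sizeable breed differences, such as from -0.38 to 0.92 for the bright PDGFRA probe set in IMF. For the breed-by-depot interaction, 0.00% of all probe sets were called by limma, with 359 of them and 0 of the 7 markers at an unadjusted p below 0.05.

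Replicates lay closest together for the bright PDGFRA probe set in JB SCF, where the highest of the 3 signals was 1.08 times the lowest. The same ratio was 4.11 in HS IMF. The SD of the log2 level was larger in HS than in JB in 10 of 14 pairs of marker probe set and depot. Over all tested probe sets it was larger in HS for 80.3% in IMF and 70.2% in SCF.

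Markers of other cell types differed between the depots as well. The counts called in this and the later lists stand beside 11.0% of all tested probe sets called, and 6.33% called lower in IMF. Of 13 skeletal muscle fibre genes, 11 were called higher in IMF by limma, with a median log2 difference of 6.53, among them myotilin (MYOT) at 7.55 and troponin T (TNNT3) at 7.10. Summed over the list, the signal ranged from 56553 to 127675 in intramuscular and from 4411 to 26738 in subcutaneous samples, the latter maximum in HS SCF 5. Some SCF signals of this list were near the floor. In HS SCF the actin gene ACTA1 ran from 6.95 to 7292 and the myosin gene MYH1 from 18.1 to 3554, so the size of such differences is uncertain. Of 8 smooth muscle and pericyte genes, 5 were higher in IMF (median 2.13), and the summed signal ran from 12021 to 48276 in IMF and from 6540 to 10083 in SCF. That list holds desmin (DES), which skeletal muscle fibres also make, so it does not read smooth muscle and pericytes alone. Adiponectin (ADIPOQ), the adipocyte hormone, had a signal from 214 to 2303 across IMF samples and from 936 to 3485 across SCF samples. The part of muscle RNA in the marker differences was not tested.

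Of 12 mature adipocyte genes 1 was called lower in IMF, the fatty acid synthesis enzyme ACACA at -1.58, and the median was -0.84 with no difference above 0. Their summed signal was 26881 to 71404 in IMF and 64467 to 100820 in SCF. Of 10 macrophage genes 9 were called lower in IMF, with a median of -1.97, among them the surface receptor CD14 at -2.19 and the complement gene C1QA at -2.48, and their summed signal was 2331 to 6867 in IMF against 10595 to 30005 in SCF. Of 11 endothelial genes, which bear on CD34, 1 was called, ROBO4 at -0.91, with 8 of the 11 differences negative and a median of -0.18. That count and the 1 of 12 adipocyte genes were near the 11.0% of all tested probe sets called. The endothelial cadherin CDH5 differed by -0.40 (limma adjusted p = 0.189) and the adhesion molecule PECAM1 by 0.0023 (adjusted p = 0.996), and summed endothelial signals were 5902 to 14457 in IMF and 9888 to 16742 in SCF. The part of these cells in the marker differences was not tested.

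**Figure D4:**
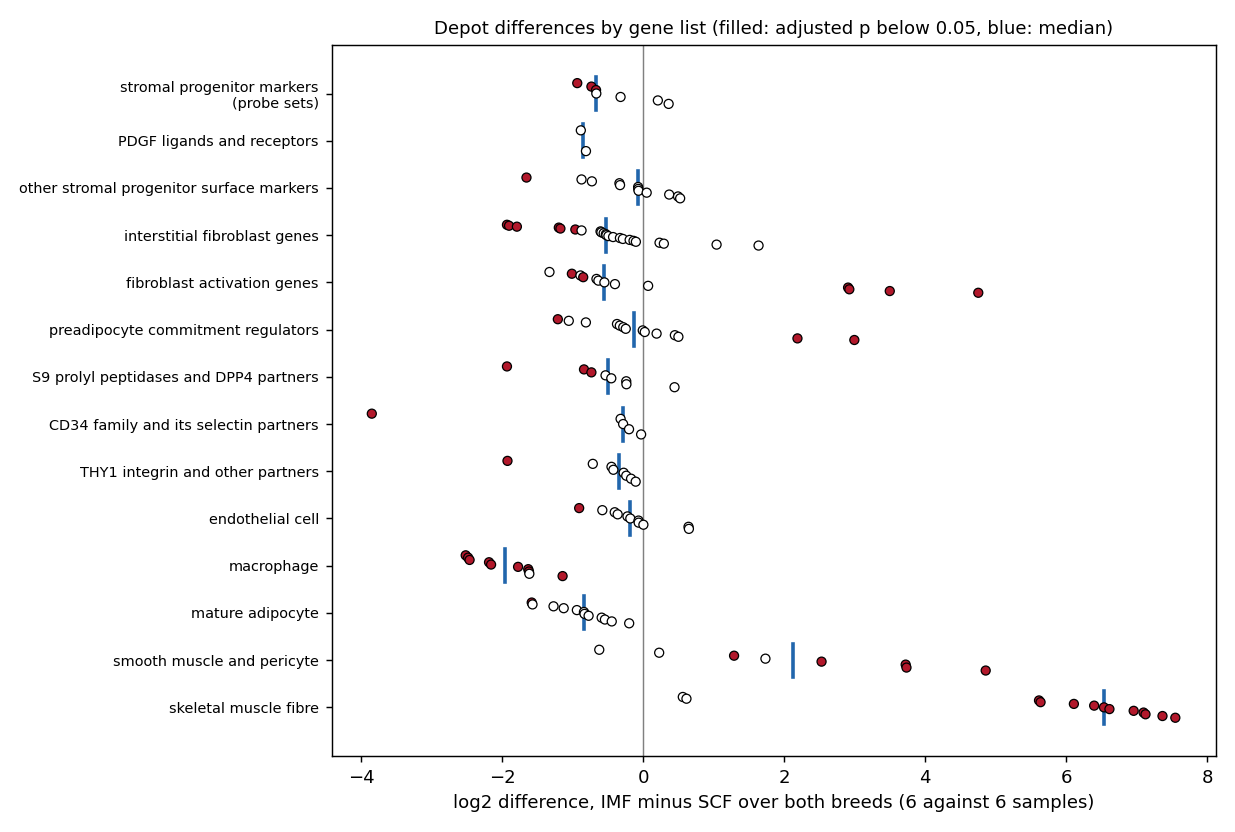
IMF minus SCF log2 differences over both breeds for the 7 tested marker probe sets and for the brightest probe set of each gene in 13 other lists, with 1 point per gene, filled at an adjusted p below 0.05, and the list median in blue. The marker median is -0.67, the interstitial fibroblast median -0.52, the macrophage median -1.97 and the skeletal muscle fibre median 6.53.

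Besides PDGFRA, the array tested PDGFRB and PDGFRL of the PDGF system, and neither passed the test between depots with all samples. PDGFRB, the receptor of pericytes and stromal cells, had a signal between 84.0 and 417 in IMF and between 329 and 667 in SCF, with a log2 difference of -0.81 ± 0.27 (SE; limma adjusted p = 0.0779). PDGFRL, a receptor-like protein, had a signal between 272 and 1055 in IMF and between 932 and 2766 in SCF, with a difference of -0.89 ± 0.27 (adjusted p = 0.0574). Without HS IMF 3 and HS SCF 4, PDGFRB was called, at -0.70 ± 0.16 (limma adjusted p = 0.0187), where 15.4% of all probe sets were called. Without JB SCF 6 and HS SCF 5 it was not called, at -0.72 ± 0.33 (adjusted p = 0.257), where 4.76% of all were called. It was also not called after median centring (adjusted p = 0.0746) or with the deposited scale kept (0.0803). PDGFRB and PDGFRL were the only genes of the 6 in this list that a probe set named.

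Of 12 other stromal progenitor surface markers 1 was called, the adhesion molecule VCAM1, at -1.66 ± 0.43 (SE; limma adjusted p = 0.0297), and the list median was -0.071. Its signal was 85.0 to 485 in IMF and 370 to 1759 in SCF. The nucleotidase NT5E, also called CD73, differed by -0.73 (adjusted p = 0.0824), and endoglin (ENG), also called CD105, by 0.049 (adjusted p = 0.932). The median of this list lay close to that of all tested probe sets, and its 1 call of 12 was near the 11.0% of all called.

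Of 23 interstitial fibroblast genes, 6 were called lower in IMF and 0 higher, with 19 differences negative and a median of -0.52. CXCL12, the chemokine that DPP4 trims, had a signal between 267 and 750 in IMF and between 1762 and 2843 in SCF, without overlap, and a log2 difference of -1.93 ± 0.18 (SE; limma adjusted p = 2.98e-05). Complement factor D (CFD) differed by -1.90, and complement C3 by -1.79. The tetranectin gene CLEC3B differed by -0.96, the microfibril gene MFAP5 by -1.17 and the collagen cross-linking enzyme LOX by -1.20. CFD and C3 are also made by adipocytes and macrophages. The interstitial progenitor gene PI16 differed by 0.23 (adjusted p = 0.740), and the matrix gene DPT by 0.29 (adjusted p = 0.514). Without JB SCF 6 and HS SCF 5, 2 of the 23 were called, where 4.76% of all probe sets were called, against 11.0% with all samples. Without HS IMF 3 and HS SCF 4, 4 of the 23 were called, with a median of -0.35, where 15.4% of all were called.

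The fibroblast activation list, which FAP belongs to by function, split in both directions. Of its 13 tested genes 4 were called higher in IMF and 2 lower, whereas 8 of the 13 differences were negative and their median was -0.55. ACTA2 rose by 2.91 ± 0.29 (SE) and TAGLN by 2.92 ± 0.32, and both are also contractile genes of smooth muscle. TNC, a matrix glycoprotein also found at muscle-tendon junctions, rose by 4.75 ± 0.48. INHBA rose by 3.50 ± 0.96, and its signals in IMF ran from 0.29 to 2321. The fibrillar collagen COL5A2 fell by 0.85 and the calcium-binding protein S100A4 by 1.01. COL1A1 differed by -0.64 (adjusted p = 0.420) and COL3A1 by -0.89 (adjusted p = 0.0594) in limma.

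Among 14 preadipocyte commitment regulators 2 were called higher in IMF, 1 lower, and the median was -0.13. DLK1, the preadipocyte factor that is shed before differentiation and is also made in muscle, had a signal between 44.1 and 540 in IMF and between 6.25 and 15.7 in SCF, a log2 difference of 2.99 ± 0.49 (SE; limma adjusted p = 0.00238). All DLK1 signals in SCF lay below the 16 that was added before log2 was taken. That is dimmer than the lowest mean log2 level that the filter on dim signals kept, 5.63. DLK1 thus passed that filter through its IMF samples. KLF5 differed by 2.19 (limma adjusted p = 0.0314). BMP2 was lower in IMF at -1.21 (adjusted p = 0.0299). The adipogenic regulator PPARG differed by -1.06 (adjusted p = 0.158).

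Partners and relatives of single markers were listed too. Of 8 genes listed as S9 peptidases and DPP4 partners, 3 were called lower in IMF. These were CXCL12, the cytosolic dipeptidyl peptidase DPP3 at -0.84 ± 0.20 (SE, limma adjusted p = 0.0215) and the acylpeptide hydrolase APEH at -0.73 ± 0.19 (adjusted p = 0.0314). DPP3 is counted in this list although it is not an S9 peptidase. Adenosine deaminase (ADA), which binds DPP4, differed by -0.53 (adjusted p = 0.133). Of 5 genes of the CD34 family and its selectin partners, 1 was called lower, E-selectin (SELE) at -3.85 ± 0.77 (adjusted p = 0.00823), with a signal between 22.0 and 147 in IMF. The SELE signal in SCF ran from 4492 to 8802 in JB and from 28.4 to 1697 in HS. Its depot log2 difference was -6.53 ± 1.09 (SE) in JB (limma adjusted p = 0.00571) and -1.17 ± 1.09 in HS (adjusted p = 0.545), and the difference between these was not called (-5.35; adjusted p = 0.990). Of 8 THY1 integrin and other partners 1 was called lower, the leukocyte integrin chain ITGB2 at -1.93 ± 0.40 (limma adjusted p = 0.00984). This 1 of 8 was near the 11.0% of all tested probe sets called between depots. With all samples, no gene of these 8 lists was called between breeds in either depot by limma. Without HS IMF 3 and HS SCF 4, SELE was called higher in JB within SCF (6.87 ± 0.51, SE, limma adjusted p = 0.00259), 1 of 2 calls over all probe sets. It was then also called in the interaction (-7.51 ± 0.73, adjusted p = 0.0269), the 1 call over all, and its depot difference in HS turned to 0.97 ± 0.56. Neither call was made in the other settings examined for SELE. These were all samples, median centring, the deposited scale, and without JB SCF 6 and HS SCF 5. The remaining alternatives, such as single left-out samples, were not looked at for SELE. Within SCF adjusted p was 0.999 without JB SCF 6 and HS SCF 5 (4.19 ± 1.34), 0.373 after median centring and 0.351 with the deposited scale kept.

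The depot background moved with the scaling. Of all called probe sets, 42.4% were higher in IMF as reported, 38.7% after median centring, and 30.5% with the deposited scale kept. The median of all depot differences was -0.060, -0.090 and -0.19 in the same order. The log2 difference of CD34 was -0.67, -0.75 and -0.85, that of the bright PDGFRA probe set -0.73, -0.81 and -0.92, and that of DPP4 Bt.8282.1.S2_at -0.94, -0.91 and -1.01. PDGFRA lost its call under both of the other scalings and DPP4 under median centring, and CD34 kept it under both.

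**Figure D5:**
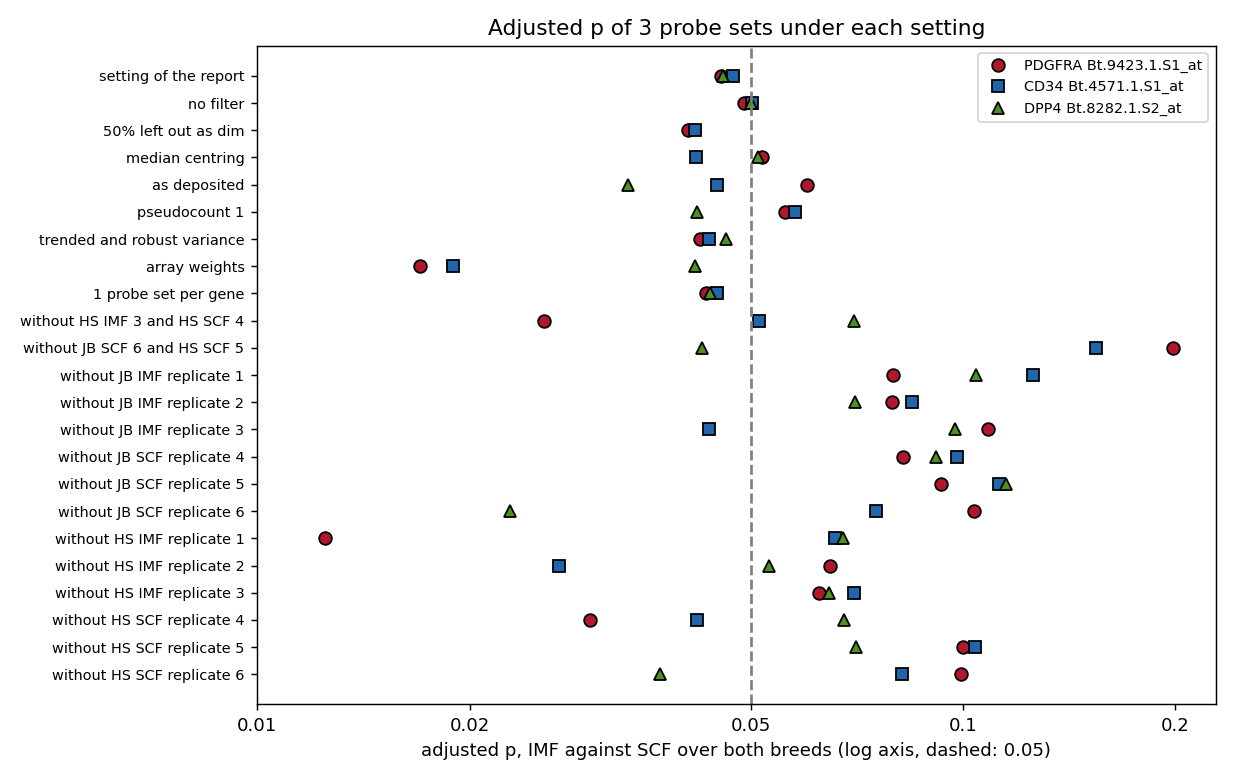
Adjusted p of the depot comparison over both breeds on a log axis for PDGFRA Bt.9423.1.S1_at, CD34 and DPP4 Bt.8282.1.S2_at, with 1 line of points for each alternative setting or left-out sample. The points lie on both sides of the dashed line at 0.05, from 0.0125 to 0.198, and most settings that leave out a sample lie to its right.

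Genes with the most similar profile over the 12 samples were named by Pearson r with the brightest probe set of each marker. For PDGFRA they were MCM3AP (r = 0.963), RCN1 (0.956) and PLCG1 (0.956), for CD34 they were LACTB (0.912), PLK2 (0.859) and C1QTNF1 (0.842). For DPP4 they were OSR2 (0.922), HRH1 (0.858) and PDGFRL (0.853), for THY1 they were MADD (0.914), DNAJC10 (0.880) and SNURF (0.869), and for FAP they were MSMO1 (0.946), RSAD1 (0.936) and NHEJ1 (0.934). Each was picked as one of the highest r among 7808 named genes over 12 samples that share groups. No marker was among the nearest genes of another. Between probe sets of different markers, r ran from -0.78, for PDGFRA Bt.29877.1.A1_at and FAP, to 0.65, for bright PDGFRA and FAP, followed by 0.64 for CD34 and DPP4 Bt.8282.1.S2_at. After the group means were taken off these were -0.67, 0.51 and 0.14, and the largest in absolute size was then -0.83, for bright PDGFRA and DPP4 Bt.8282.1.S1_at.

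In the bovine RefSeq annotation of ARS-UCD2.0, DPP4 and FAP flank the glucagon gene GCG, which was dim on these arrays (signal 1.33 to 17.0). PDGFRA lies beside KIT, another receptor kinase, whose depot log2 difference was -0.81 ± 0.34 (SE; limma adjusted p = 0.148), and beyond it the endothelial receptor KDR differed by -0.065 (adjusted p = 0.877). CD34 lies between PLXNA2, at 0.073 (adjusted p = 0.805), and CD46, at -0.077 (adjusted p = 0.845). THY1 lies beside USP2, at 0.91 ± 0.30 (adjusted p = 0.0704). None of KIT, KDR, PLXNA2, CD46 and USP2 passed the test between depots, and GCG was too dim to be tested.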

How the data were processed

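The deposited table holds linear intensity values of 24128 probe sets in 12 samples. Per the labels, biotin-labelled cRNA was made from total RNA. Affymetrix Expression Console 1.1 and GCOS 1.1.1 are named in the submitters' processing notes. How the authors summarized and normalized the probes is not given in the sources used here. For the tests log2(signal + 16) was taken and quantile normalized in R 4.3.3. The 112 control probe sets and the dimmest 30% were left out, leaving 16811. limma 3.58.1 was fitted to 4 group means (8 residual and 4.05 prior degrees of freedom), with Benjamini-Hochberg adjustment per comparison. The scripts were tested on simulated data. Scan dates and slides were not given, so no batch was tested. Of the 24016 non-control probe sets, 13292 had 1 symbol, 86 several and 10638 none; annotation symbols can be old. A listed gene was read by its brightest probe set. Named were all markers, up to 4 of each other list with the smallest p where any passed, the 3 genes most like each marker, and annotation neighbours; PDGFRB, PDGFRL, ENG, PI16, DPT, MFAP5, LOX, COL1A1, COL3A1, INHBA, S100A4, PPARG, PECAM1, CDH5, ADIPOQ and MYOD1 were added after their values were seen. Markers, lists and tests were chosen with earlier results of these data known. The alternatives were other scalings, filters, pseudocounts, variance models and left-out samples.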

Additional observations from a re-analysis of the deposited data

Results flagged for a closer look

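Dixon's ratio, the gap of the most extreme sample to its nearest neighbour divided by the range, was looked at in the 6 samples of each depot for all 8 marker probe sets. In 3 of 16 such sets a sample stood apart. Chance sets about 1 in 20 apart where all 6 samples come from 1 population, but each set here pools both breeds. Over all tested probe sets a sample stood apart in 15.8% in IMF and 11.1% in SCF, and it was a Holstein sample in 95.3% and 87.2% of these. At PDGFRA Bt.29877.1.A1_at in IMF, HS IMF 3 was high (ratio 0.698), with a log2 level of 7.21 against 6.51 in the next sample. At DPP4 Bt.8282.1.S1_at in SCF, HS SCF 4 was high (ratio 0.676), with 7.35 against 5.99. At THY1 in SCF, HS SCF 4 was low (ratio 0.641), with 5.65 against 6.44. None of these probe sets carries a call, and both samples are Holstein.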

How the results depend on the processing

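The count of marker probe sets called between depots over both breeds, 3 as reported, with 11.0% of all probe sets called, was 1 with no filter on dim probe sets (8.17% of all), 1 with median centring (11.5%), 1 with a pseudocount of 1 (9.87%), 1 without HS IMF 3 and HS SCF 4 (15.4%), 1 without JB SCF 6 and HS SCF 5 (4.76%), and 0 to 2 with single samples left out (5.49% to 13.9%). For depot in JB it was 3 with array weights (PDGFRA, CD34 and DPP4; adjusted p = 0.0105, 0.00305 and 0.0189), where the calls over all probe sets rose from 3.07% to 25.8%, and 1 with only the compared groups (PDGFRA, 0.0376), where 6.17% of all were called, against 0 as reported. The other counts stayed at 0. Leaving out samples also lowers the degrees of freedom. In 919 alternative values of single probe sets the sign turned in 46, all of them of differences that were not called. With the deposited scale these were CD34 breed in IMF (0.054) and interaction (0.11), DPP4 Bt.8282.1.S2_at breed in IMF (0.043), FAP breed in SCF (0.060), PDGFRA Bt.29877.1.A1_at breed in IMF (0.0090), bright PDGFRA interaction (0.24) and THY1 depot in HS (-0.14). Median centring turned FAP breed in SCF (0.016) and bright PDGFRA interaction (0.083). Array weights turned DPP4 Bt.8282.1.S1_at breed in SCF (0.019) and interaction (-0.41), DPP4 Bt.8282.1.S2_at interaction (-0.038), PDGFRA Bt.29877.1.A1_at breed in IMF (0.019) and interaction (0.0062), bright PDGFRA interaction (0.099) and THY1 depot in HS (-0.36). Without HS IMF 3 and HS SCF 4 these were PDGFRA Bt.29877.1.A1_at (0.060) and bright PDGFRA (-0.0050) breed in IMF, and THY1 depot in HS (-0.50) and over both breeds (-0.064). Without JB SCF 6 and HS SCF 5 they were CD34 (0.095), FAP (0.15) and PDGFRA Bt.29877.1.A1_at (-0.090) breed in SCF, and THY1 interaction (-0.041). The cause was not tested.

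With single samples left out, the lowest and highest values of differences whose sign turned were as follows. For breed in IMF they were -0.44 and 0.059 (PDGFRA Bt.29877.1.A1_at), -0.0045 and 0.57 (bright PDGFRA), and -0.12 and 0.036 (DPP4 Bt.8282.1.S2_at). For breed in SCF they were -0.29 and 0.0049 (CD34), -0.38 and 0.23 (FAP), and -0.10 and 0.17 (PDGFRA Bt.29877.1.A1_at). For depot in HS they were -0.66 and 0.15 (DPP4 Bt.8282.1.S1_at) and -0.29 and 0.33 (THY1), and for depot in JB -0.73 and 0.14 (FAP). For the interaction they were -0.39 and 0.025 (CD34), -0.45 and 0.37 (DPP4 Bt.8282.1.S1_at), -0.49 and 0.0095 (PDGFRA Bt.29877.1.A1_at), and -0.33 and 0.24 (bright PDGFRA).

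A replicate block left 0 marker probe sets called in breed in IMF, breed in SCF and the interaction. Deviations of same-numbered JB and HS samples correlated at -0.28 to 0.12, so the numbers were not taken to pair the samples. IMF and SCF samples share no numbers, so the depot comparisons had no block. Depot over both breeds and the interaction use all groups and had no fit on the compared groups only.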

Other observations

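Other cell type lists differed between depots as well, with values from the same limma fit over both breeds. Of 5 Schwann cell and nerve genes 2 were called lower in IMF, the myelin gene MBP at -1.67 ± 0.20 (SE; adjusted p = 0.000269) and S100B at -1.60 ± 0.20 (adjusted p = 0.000386), which adipocytes also make. THY1, which some nerve cells carry, differed by 0.21 (adjusted p = 0.582). Of 5 mesothelial and epithelial genes 2 were called lower in IMF, EPCAM at -1.46 ± 0.26 (adjusted p = 0.00465) and CDH1 at -0.99 ± 0.21 (adjusted p = 0.0102). Of 8 leukocyte genes 1 was called lower, PTPRC at -1.53 ± 0.31 (adjusted p = 0.00858), a count near the 11.0% of all tested probe sets called. None of 5 erythroid genes was called, with a median of 0.23. Neither muscle satellite cell gene on the array passed the filter on dim signals; the signal of MYOD1 ran from 6.57 to 303 in IMF and from 0 to 7.45 in SCF.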
